A study of Homo sapiens with 4 samples.

Results

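Collagens are the main structural proteins of connective tissue and of the basement membrane under an epithelium. Each molecule is built from chains whose repeating glycine-containing sequence lets them wind around one another into a helical rod, and each chain has its own gene. Fibrillar chains assemble into the fibrils of stroma, type IV chains form the sheet-like network of the basement membrane, and FACIT chains (fibril-associated collagens with interrupted helices) decorate fibril surfaces. TGF-β is known as an inducer of fibrillar collagen genes in fibroblasts. The genes described here are the 43 of 19775 named genes whose symbol is COL, a type number, A and a chain number, read by 112 probe sets (groups of short probes for 1 transcript). Of the 43, 35 had several probe sets and 8 had 1, and a gene is read from the probe set with its highest mean.

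The cells are LSTGFBR2, a colon cancer epithelial line with a doxycycline-inducible TGFBR2 construct made with the T-Rex system. The 2 groups of 2 arrays are untreated cells and cells that had 5 ng/ml TGF-β1 over 16 hours. The treatment protocol describes 1 μg/ml doxycycline from seeding (the growth protocol gives 1 uM) and TGF-β1 from 16 hours after seeding, and the labels leave unsaid which arrays had doxycycline, and whether the replicates were separate cultures. TGFBR2, the gene of the construct, read 9.44 and 9.55 without TGF-β1 and 14.70 and 14.92 with it by its brighter probe set, while its other probe set read 10.47 and 10.81 against 10.58 and 10.76. By the brighter probe set the groups differ in receptor signal as well as in ligand, and effects of these cannot be told apart. All values are RMA values (background-corrected, quantile-normalised array signals) on the log2 scale, with array medians of 6.57 to 6.61. The epithelial identity was checked with 10 intestinal epithelial markers, all 10 of which had a mean log2 value of 7 or more (7.75 to 15.05, highest for KRT18), while CDX2, an intestinal transcription factor among them, fell by 0.73 on the log2 scale (adjusted p = 0.0327 in limma). Of 10 fibroblast markers, 8 had a mean under 7. The mean over the fibroblast list was 5.87 and 5.97 without TGF-β1 and 5.81 and 5.88 with it. Smooth muscle, endothelial and leukocyte lists had 2 of 5, 4 of 5 and 3 of 4 measured markers under 7.

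Most collagen genes had low signal and similar values in both groups. A mean log2 value of 7 or more was reached by 12 of 43 collagen genes (27.9%), against 57.4% of all genes. Probe sets differ in how brightly they report a transcript, so these levels sort probe sets into bands and do not rank the genes by transcript amount. Only 2 genes had a mean of 9 or more, 10 lay from 7 to under 9, 21 from 5 to under 7 and 10 under 5. By their brightest probe sets, 1 collagen gene fell and 0 rose at a limma p under 0.05 after Benjamini-Hochberg adjustment across the 19775 genes, beside 3.34% of all genes called in either direction (1.87% higher and 1.47% lower). At an unadjusted limma p under 0.05, 3 were higher and 2 lower, 5 in all, beside 16.7% of all genes (8.18% higher and 8.54% lower). The change was smaller than 0.3 in size on the log2 scale for 38 of the 43. The median log2 fold change (TGF-β1 minus untreated) was 0.03, beside -0.0036 over all genes. The 2 groups of arrays did not overlap for 10 collagen genes, beside 44.4% of all genes. TGF-β1 arrays were the higher for COL6A1, COL9A1, COL9A2, COL9A3, COL12A1 and COL16A1, and the lower for COL3A1, COL4A1, COL4A2 and COL19A1. Of the 112 collagen probe sets tested on their own, 0 passed the adjusted threshold, beside 0.954% of all 54613 probe sets, with 1 probe set of COL1A1 at its edge. At an unadjusted p under 0.05, 7 of the 112 were higher and 6 lower, beside 6.34% and 6.87%, or 13 in all beside 13.2%.

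**Figure D1:**
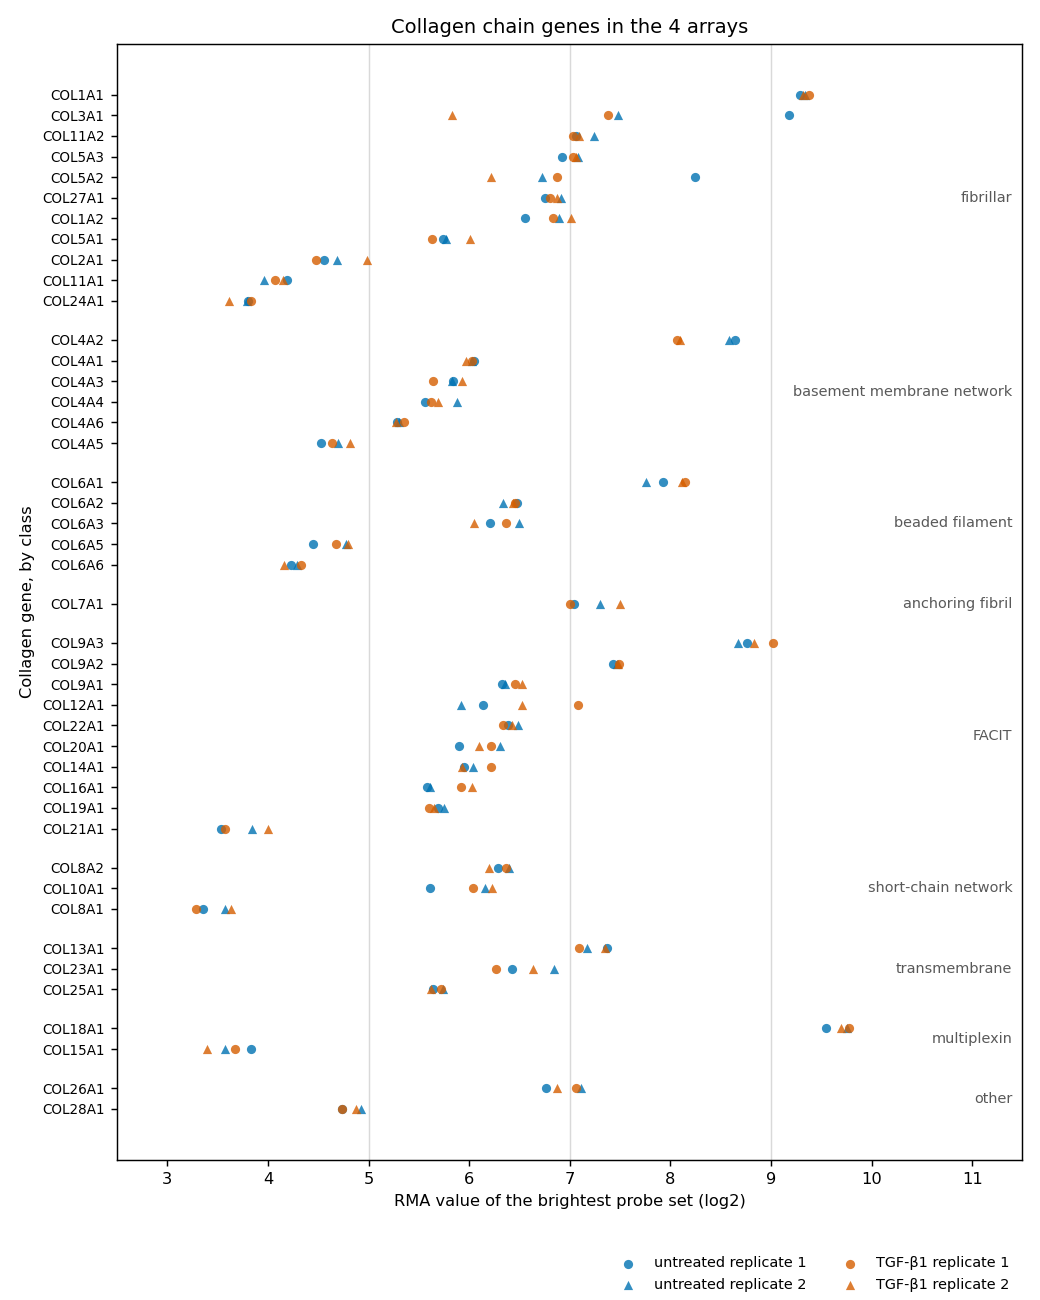
RMA value (log2, x axis) of the brightest probe set of each of the 43 collagen genes (y axis, by class) in the 4 arrays, with circles for replicate 1, triangles for replicate 2, blue for untreated and orange for TGF-β1. Grey lines mark 5, 7 and 9; most genes lie left of 7, and COL3A1 and COL5A2 have the widest scatter.

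The dim bands held few called genes in the whole table as well. Among genes of mean log2 under 5, 4.28% of all genes and 0 of 10 collagen genes had an unadjusted limma p under 0.05. From 5 to under 7 the share was 7.04% of all genes, and 2 of 21 collagen genes passed, COL12A1 and COL16A1. From 7 to under 9 it was 21.5%, and 3 of 10 collagen genes passed, COL4A2, COL3A1 and COL6A1. At 9 or more it was 26.3%, and 0 of 2 passed, COL1A1 and COL18A1.

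COL4A2, which encodes the α2 chain of basement membrane collagen IV, was the 1 collagen gene that fell. It read 8.64 and 8.58 without TGF-β1 and 8.07 and 8.09 with it. Both untreated arrays lay above both TGF-β1 arrays, and the replicates lay close together. The log2 fold change was -0.53 ± 0.097 (SE, 2 arrays a group, 95% interval -0.77 to -0.29, adjusted p = 0.0467 in limma), a 1.44-fold lower level. In RNA from whole cultures, fewer cells with a transcript and less of it per cell cannot be told apart. Its second probe set, 211966_at, read 6.969 and 6.999 without TGF-β1 and 6.55 and 6.17 with it, again without overlap. That probe set changed by -0.62 ± 0.148 (SE, adjusted p = 0.140 in limma over all probe sets). The call lay at the threshold. It was lost with arrays centred on their medians (adjusted p = 0.0503 in limma), with every probe set tested (0.0889) and without any 1 of the 4 arrays (0.169 to 0.241, in fits that called 6 to 21 of all 19775 genes lower in place of 291), while the log2 fold change stayed between -0.56 and -0.50.

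The α1 chain that pairs with it in the common collagen IV molecule is encoded by COL4A1. COL4A1 read 6.052 and 6.030 without TGF-β1 and 6.025 and 5.965 with it, without overlap but nearly level, which is a log2 change of -0.05 ± 0.097 (SE, 95% interval -0.28 to 0.19). Whether the changes of the 2 genes differ was not tested, and this COL4A1 probe set is dimmer than that of COL4A2. A second COL4A1 probe set, 211980_at, had a mean of 4.41 and a log2 fold change of -0.15 ± 0.148 (SE). The 4 other type IV genes, COL4A3 to COL4A6, which encode chains of kidney and other specialised basement membranes, had means of 4.67 to 5.81 and log2 fold changes of -0.06 to 0.11. None of these passed by limma, adjusted or unadjusted.

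COL4A1 and COL4A2 lie head to head and are transcribed away from each other from a shared stretch, which is printed because only COL4A2 of the pair was called. The RefSeq promoter table (GRCh38.p14) places the stretch between the 2 transcript starts at chr13:110307158-110307283, 126 bases with 80.2% G and C. It is given on the plus strand, with COL4A1 to the left and COL4A2 to the right. Capitals mark a match to the CCAAT box (CCAAT) and a match to the GC box (GGGCGG).
COL4A1-COL4A2 interval: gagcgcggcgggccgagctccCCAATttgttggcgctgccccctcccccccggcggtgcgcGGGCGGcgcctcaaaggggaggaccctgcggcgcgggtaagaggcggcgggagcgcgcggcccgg
The same letters serve both genes, and the arrays read transcripts, not activity of this stretch.

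The fibrillar genes held both the lowest and, by other probe sets, the highest changes. By the brightest probe sets, 0 of 11 passed the adjusted threshold, and the median log2 fold change was 0.03. Changes lay above 0 for 7 and below 0 for 4, beside 9671 above and 10104 below among all 19775 genes. COL1A1, COL1A2, COL3A1, COL5A1, COL5A2 and COL5A3 encode chains of the fibril-forming collagens I, III and V of stroma.

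COL1A1, which encodes the main chain of collagen I, gave different answers by probe set. Its brightest probe set, 217430_x_at, read 9.29 and 9.34 without TGF-β1 and 9.38 and 9.31 with it, which overlap. The log2 fold change was 0.03 ± 0.098 (SE, 95% interval -0.21 to 0.27). An _x_at name marks a probe set with probes that can also match other sequences.
Its second brightest probe set, 1556499_s_at, read 4.67 and 5.61 without TGF-β1 and 7.58 and 8.70 with it. The log2 fold change was 2.99 ± 0.436 (SE, 7.97-fold, adjusted p = 0.0501 over all probe sets). The third, 202310_s_at, read 5.12 and 6.004 without TGF-β1 and 6.88 and 7.39 with it, which is a log2 change of 1.57 ± 0.311 (SE, adjusted p = 0.0931 in limma). For both of these, each TGF-β1 array lay above each untreated array. The remaining probe sets, 202312_s_at and 202311_s_at, had means of 5.68 and 3.36 and log2 fold changes of 0.08 and 0.07.

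The range of log2 fold changes among the probe sets of COL1A1, 2.97, was exceeded by 1 of the 10523 genes with several probe sets. The mean of the 5 probe sets changed by 0.95 on the log2 scale (adjusted p = 0.0463 in limma). With _x_at probe sets left out of the whole table, a choice made after the values were seen, 1556499_s_at stood for the gene and passed (adjusted p = 0.0252 in limma). The count of higher collagen genes is therefore 0 or 1 depending on which COL1A1 probe set is read. Among fits over all probe sets, chosen after the values were seen, 1556499_s_at also passed with an intensity trend (adjusted p = 0.0393 in limma), with arrays centred (0.0331) and with a minimum mean of 5 (0.0473). With any 1 array left out, it had log2 fold changes of 2.43 to 3.56 and adjusted p-values of 0.0860 to 0.317. COL1A2, which encodes the partner chain in collagen I, read 6.55 and 6.89 without TGF-β1 and 6.83 and 7.01 with it. Its log2 fold change was 0.20 ± 0.146 (SE, 95% interval -0.16 to 0.56), and its other probe sets had -0.21 and 0.03.

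**Figure D2:**
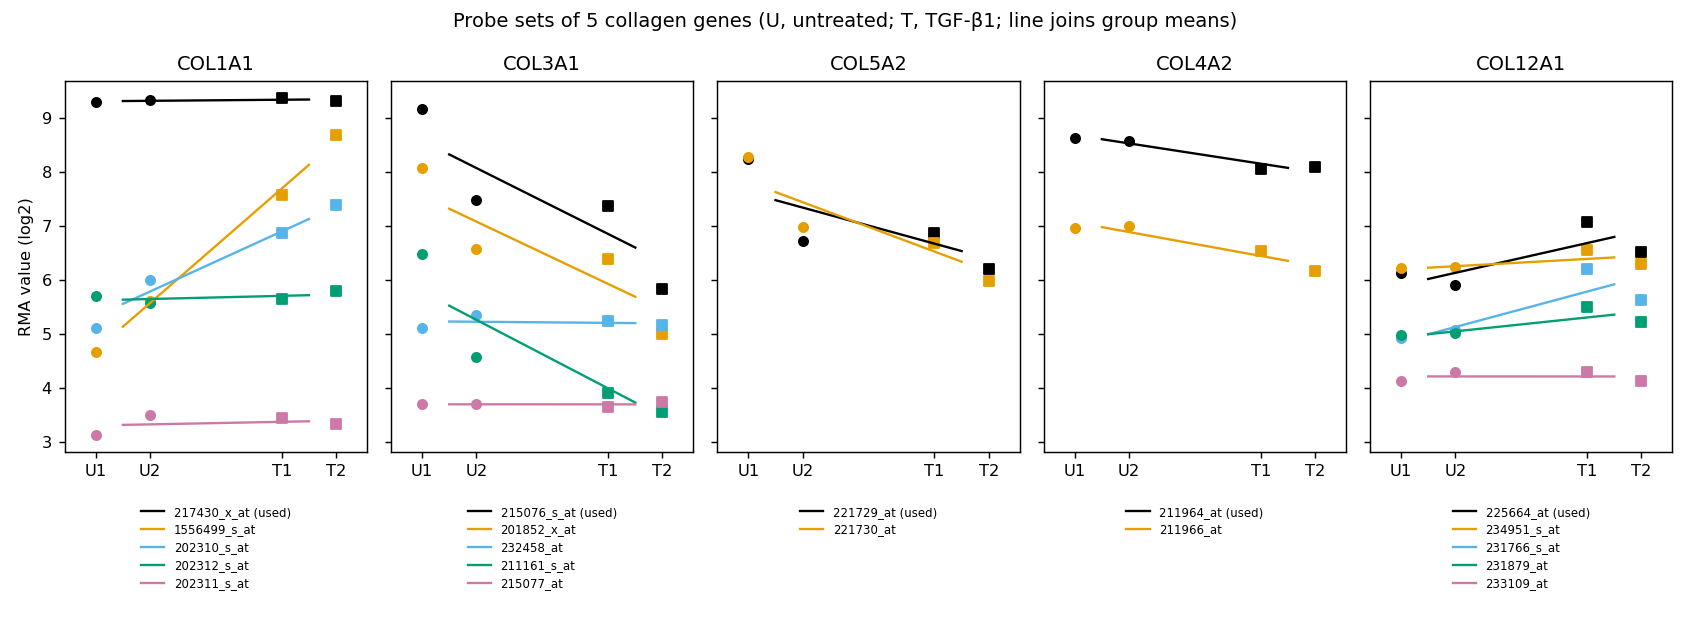
RMA values (log2, y axis) of every probe set of COL1A1, COL3A1, COL5A2, COL4A2 and COL12A1 in the 4 arrays (x axis: U1 and U2 untreated, T1 and T2 TGF-β1), with lines joining group means. For COL1A1, 1556499_s_at and 202310_s_at have lines that climb while the brightest probe set runs level; both COL4A2 and both COL5A2 probe sets slope down.

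COL3A1, which encodes the chain of collagen III, had the lowest log2 fold change of the family. It did not pass in the main fit, which has no replicate block. It read 9.18 and 7.48 without TGF-β1 and 7.38 and 5.83 with it. Untreated replicate 1 stood far above the rest, while untreated replicate 2 and TGF-β1 replicate 1 were nearly equal. The log2 fold change was -1.72 ± 0.663 (SE, 95% interval -3.34 to -0.11, adjusted p = 0.267). Of its other probe sets, 201852_x_at and 211161_s_at had -1.63 and -1.79, and 232458_at and 215077_at had -0.03 and -0.0011. With 1 array left out the log2 fold change of COL3A1 was between -2.57 and -0.87. A single array thus moved it by over 1.5 times. It was -0.87 when untreated replicate 1 was dropped and -0.95 when TGF-β1 replicate 2 was. When the other replicate of each group was dropped, it was -2.57 and -2.50. Between arrays of the same replicate number, TGF-β1 minus untreated was -1.80 for replicate 1 and -1.65 for replicate 2. The labels leave unsaid whether these numbers pair the arrays.

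COL5A2, which encodes a chain of collagen V and is the neighbouring protein-coding gene of COL3A1 on chromosome 2, had a like scatter. It read 8.24 and 6.72 without TGF-β1 and 6.87 and 6.21 with it, with overlap. The log2 fold change was -0.94 ± 0.482 (SE, adjusted p = 0.421 in limma), and it ranged from -1.70 to -0.18 over the fits on 3 arrays. The second probe set, 221730_at, read 8.27 and 6.99 without TGF-β1 and 6.70 and 5.99 with it (log2 fold change -1.29 ± 0.436 SE, adjusted p = 0.280). The pooled standard deviation within groups was 1.15 for COL3A1 and 0.83 for COL5A2, against a median of 0.12 over collagen genes and 0.11 over all genes. Only 13 and 33 of 19775 genes had a larger one. In both groups replicate 1 was the higher for these 2 genes. KRT20, an intestinal keratin named after its values were seen, also read higher in replicate 1 (untreated 8.78 against 7.30, TGF-β1 8.16 against 6.74). The epithelial markers did not all go this way. EPCAM, KRT8, KRT18, KRT19, CDX2 and LGALS4 were higher in replicate 1 of each group, by less than KRT20. CDH1, VIL1 and CDX1 were lower in replicate 1 of each group. Whether KRT20 has a part in the scatter was not tested. Of the 10 fibroblast markers, 6 had a log2 fold change below 0 and 4 above (-0.60 to 0.16, median -0.09), and 0 passed the adjusted threshold. LUM, a defining fibroblast gene with the lowest of these changes, read 3.52 and 3.91 without TGF-β1 and 3.06 and 3.17 with it. Its mean of 3.41 lay at percentile 2.13 of all genes, near the floor of the arrays. DCN, another such gene, read 7.17 and 7.14 against 7.18 and 6.98. Their part in these collagen values was not tested.

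The remaining fibrillar genes, COL2A1, COL5A1, COL5A3, COL11A1, COL11A2, COL24A1 and COL27A1, had log2 fold changes of -0.09 to 0.11 by the brightest probe set. None passed by limma, and the untreated and TGF-β1 arrays overlapped for each of them.

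Among the 10 FACIT genes, 0 passed the adjusted threshold, and 2 had an unadjusted limma p under 0.05, beside 16.7% of all genes. The log2 fold change was above 0 for 8 of the 10, with a median of 0.09, beside 9671 of all 19775 genes above 0. COL12A1, whose product binds the surface of collagen I fibrils, had the highest log2 fold change of all collagen genes by the brightest probe sets. It read 6.13 and 5.92 without TGF-β1 and 7.08 and 6.52 with it, so both TGF-β1 arrays were higher, replicate 1 the more so. The log2 fold change was 0.78 ± 0.196 (SE, 1.71-fold, adjusted p = 0.103), and it was 0.50 without TGF-β1 replicate 1 and 1.06 without TGF-β1 replicate 2. Of its other 4 probe sets, 231766_s_at had a log2 fold change of 0.93 ± 0.196, 231879_at 0.36 ± 0.130, 234951_s_at 0.19 ± 0.126 and 233109_at, the dimmest, -0.00089 ± 0.125 (SE). None of them passed over all probe sets.

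COL16A1, another fibril-associated chain with 1 probe set, read 5.58 and 5.61 without TGF-β1 and 5.92 and 6.03 with it. Its groups did not overlap, and the log2 fold change was 0.38 ± 0.1003 (SE, adjusted p = 0.116). COL9A3, a chain of the cartilage collagen IX and the FACIT gene with the brightest probe set, read 8.76 and 8.67 without TGF-β1 and 9.02 and 8.83 with it, which is a log2 change of 0.21 ± 0.113 (SE, adjusted p = 0.460), or 0.11 to 0.30 over the fits on 3 arrays. The other 7, COL9A1, COL9A2, COL14A1, COL19A1, COL20A1, COL21A1 and COL22A1, had log2 fold changes of -0.09 to 0.15.

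COL12A1 and COL16A1 had the lowest unadjusted p-values among the genes with positive changes, and the 250 bases before their RefSeq transcript starts are printed for that reason, each on the minus strand of GRCh38.p14. These lie at chr6:75206054-75206303 for COL12A1 and chr1:31704018-31704267 for COL16A1. Capitals mark matches, on either strand, to the GC box (GGGCGG, read as CCGCCC on the other strand) and the E-box bound by factors of the SNAI2 type (CACCTG).
COL12A1 upstream: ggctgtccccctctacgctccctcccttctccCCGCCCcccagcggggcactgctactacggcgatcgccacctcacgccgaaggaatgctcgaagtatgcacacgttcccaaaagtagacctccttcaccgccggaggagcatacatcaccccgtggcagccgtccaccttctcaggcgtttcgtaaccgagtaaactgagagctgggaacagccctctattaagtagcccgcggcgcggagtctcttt
COL16A1 upstream: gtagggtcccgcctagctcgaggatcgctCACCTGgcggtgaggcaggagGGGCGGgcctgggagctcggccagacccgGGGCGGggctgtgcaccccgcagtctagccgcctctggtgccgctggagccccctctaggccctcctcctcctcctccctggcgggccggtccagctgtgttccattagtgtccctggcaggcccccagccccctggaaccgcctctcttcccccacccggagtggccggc

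For 31 of the 43 collagen genes the table held windows of 300 bases (250 before to 50 after the start), which were searched on both strands with letters overlapping freely. The GC box was found for 21 of 31 collagen genes (67.7%, against 48.3% of 27305 genes) and the CCAAT box for 11 (35.5%, against 39.7%). The SMAD element CAGACA was found for 4, COL4A6, COL7A1, COL10A1 and COL16A1 (12.9%, against 19.9%), and its palindromic form GTCTAGAC for 0 (0.256% of all genes). The COL16A1 match to CAGACA does not lie wholly within the 250 bases printed for that gene. The AP-1 site TGANTCA was found for 1, COL10A1 (3.23%, against 9.37%), the E-box CACCTG for 5 (16.1%, against 24.1%) and the TATA box TATAAA for 6 (19.4%, against 14%). These are matches of letters in short windows and say nothing of binding.

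**Figure D3:**
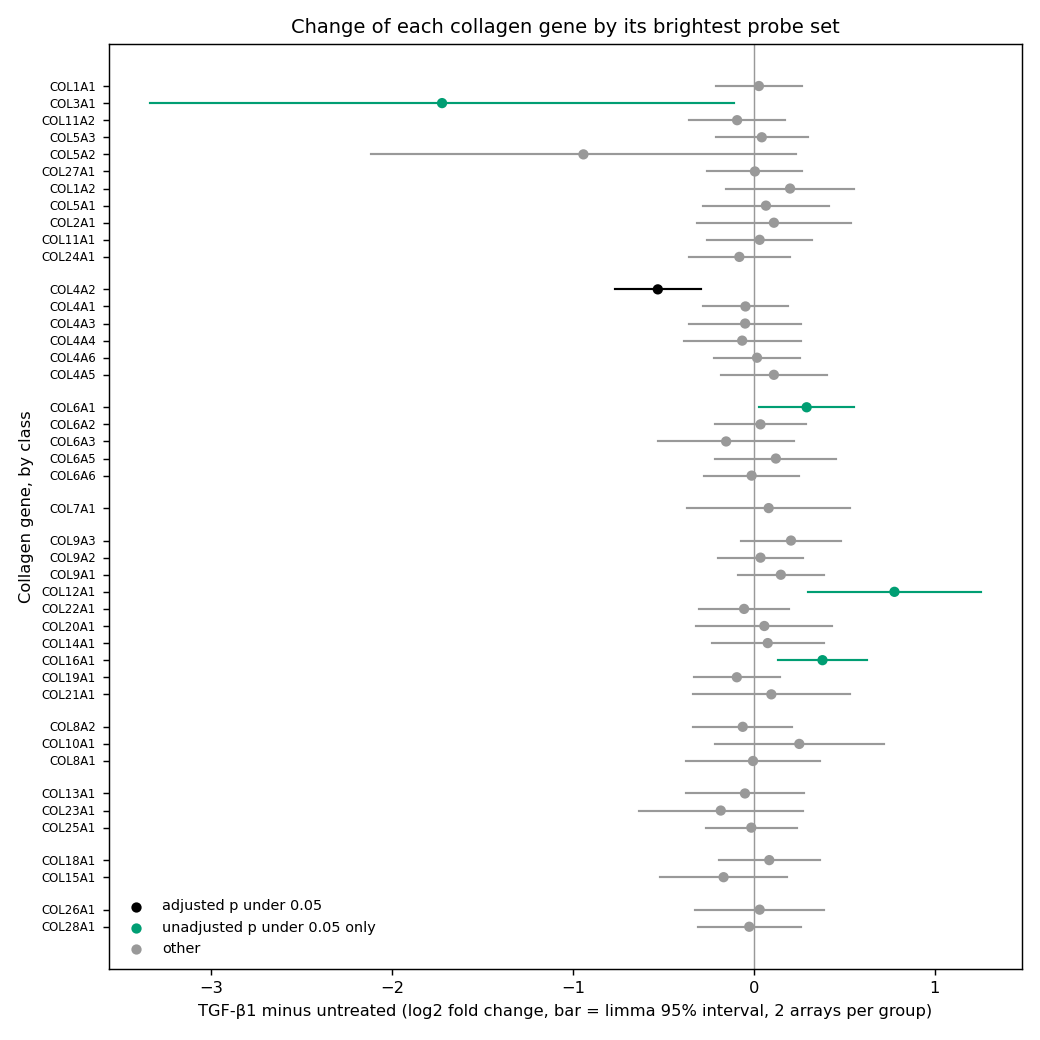
Log2 fold change (x axis, TGF-β1 minus untreated) of each of the 43 collagen genes (y axis, by class in the order of the level plot) by its brightest probe set, with limma 95% intervals as bars. COL4A2, in black, is the only gene at adjusted p under 0.05 by these probe sets (0.0503 with arrays centred); COL3A1 and COL5A2 have the widest bars, and COL12A1 lies farthest right.

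Of the 5 beaded filament genes (type VI, microfibrils that link cells to the matrix), 0 passed the adjusted threshold. COL6A1 read 7.92 and 7.76 without TGF-β1 and 8.15 and 8.12 with it, without overlap, which is a log2 change of 0.29 ± 0.107 (SE, adjusted p = 0.242). Its 7 other probe sets had log2 fold changes of -0.07 to 0.22. COL6A2 and COL6A3, the chains that assemble with it, had 0.04 ± 0.104 and -0.15 ± 0.155 (SE).

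Other classes held genes at comparable values in both groups, and none passed by limma, adjusted or unadjusted. COL18A1, a multiplexin of epithelial and vascular basement membranes whose end fragment is endostatin, read 9.55 and 9.75 without TGF-β1 and 9.78 and 9.69 with it. Its log2 fold change was 0.09 ± 0.114 (SE, 95% interval -0.19 to 0.36), and its second probe set had 0.30 ± 0.145. The other multiplexin, COL15A1, had -0.17 ± 0.145 (SE). COL7A1, the anchoring fibril chain that ties basement membrane to stroma, read 7.04 and 7.30 without TGF-β1 and 7.01 and 7.49 with it, which is a log2 change of 0.08 ± 0.185 (SE). Its second probe set read 6.20 and 6.44 against 6.22 and 7.21, where only TGF-β1 replicate 2 was apart. Among transmembrane collagens, COL13A1 and COL23A1 had log2 fold changes of -0.05 ± 0.135 and -0.18 ± 0.186 (SE), and COL25A1 had -0.01 ± 0.103. Of the short-chain network genes, COL10A1 had 0.25 ± 0.192, COL8A2 -0.06 ± 0.112 and COL8A1 -0.0042 ± 0.152 (SE). COL26A1 and COL28A1, which fall in none of these classes, had 0.03 ± 0.147 and -0.02 ± 0.117 (SE).

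The gene order in RefSeq places 14 of the 43 collagen genes in 7 neighbouring pairs, with no protein-coding gene between the members. Beside COL4A1 with COL4A2 (-0.05 and -0.53) and COL3A1 with COL5A2 (-1.72 and -0.94), the log2 fold changes were 0.29 and 0.04 for COL6A1 with COL6A2, -0.09 and 0.15 for COL19A1 with COL9A1, -0.06 and -0.05 for COL4A4 with COL4A3, 0.12 and -0.01 for COL6A5 with COL6A6, and 0.02 and 0.11 for COL4A6 with COL4A5. COL3A1 with COL5A2 was the pair in which both changes exceeded 0.3 in size.

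Genes that make, bind or degrade collagen were read from 7 lists of 76 genes, 72 of them measured. Of the 72, 5 rose and 0 fell at limma adjusted p under 0.05, beside 3.34% of all genes called in either direction. Of all genes, 1.87% were called higher and 1.47% lower. All 5 had a mean log2 value of 9 or more, a band in which 205 of 7234 genes were called higher and 206 lower. The median log2 fold change of the 72 was 0.11. The lists of receptors, basement membrane partners and hemidesmosome genes held 4 of the 5.

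Among 8 measured receptors, ITGA2 rose. It encodes the α2 subunit of the collagen-binding integrin α2β1, and it read 9.32 and 9.66 without TGF-β1 and 12.44 and 12.64 with it, which is a log2 change of 3.05 ± 0.149 (SE, adjusted p = 0.00129 in limma). Its partner ITGB1 read 13.25 and 13.17 without TGF-β1 and 13.68 and 13.72 with it, which is a log2 change of 0.49 ± 0.099 (SE, adjusted p = 0.0598), and did not pass. The receptor list had a median of 0.10, and ITGA1, ITGA10, ITGA11, DDR2, GP6 and LAIR1 did not pass.

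Of 12 basement membrane partners, 1 rose, with a list median of 0.19. LAMB3, a chain of the epithelial laminin of hemidesmosomes, read 9.25 and 10.05 without TGF-β1 and 11.41 and 11.54 with it, which is a log2 change of 1.82 ± 0.253 (SE, adjusted p = 0.0228 in limma). NID1, which links laminin to collagen IV, had 0.67 ± 0.311 (SE, adjusted p = 0.363) and read 9.09 in untreated replicate 1 and 10.10 to 10.37 in the other arrays. Of 5 hemidesmosome genes 2 rose. ITGB4, the β4 integrin subunit, read 10.43 and 10.78 without TGF-β1 and 11.74 and 11.48 with it (log2 fold change 1.01 ± 0.158 SE, adjusted p = 0.0326 in limma). PLEC, the linker protein plectin, read 8.67 and 8.97 without TGF-β1 and 9.50 and 9.57 with it (0.71 ± 0.129 SE, adjusted p = 0.0456).

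Of 15 chain modification and folding genes, 1 rose, with a list median of -0.03. P4HA2, a catalytic subunit of the prolyl hydroxylase that stabilises the collagen helix, read 9.90 and 10.19 without TGF-β1 and 10.75 and 11.15 with it. The log2 change was 0.91 ± 0.170 (SE, adjusted p = 0.0491 in limma). This call lay at the threshold, as did that of PLEC. COLGALT1, a collagen galactosyltransferase, had -0.42 ± 0.098 (SE, adjusted p = 0.0832). In the secretion list 0 of 8 passed, with log2 fold changes from 0.09 to 0.45, led by the coat protein genes SEC24D (0.45) and SEC23A (0.22). In the list for propeptide cleavage and cross-linking 0 of 14 passed, and the largest changes were those of LOXL3, a lysyl oxidase family gene (-0.34 ± 0.122 SE), and ADAMTS3, a procollagen protease gene (-0.30 ± 0.207 SE). The ADAMTS3 groups overlapped, and its mean of 3.67 lay at percentile 3.57 of all genes, near the floor of the arrays. Of 10 degradation genes 0 passed. MMP1, the interstitial collagenase, read 6.41 and 6.01 without TGF-β1 and 10.21 and 7.96 with it, which is a log2 change of 2.87 ± 0.661 (SE, adjusted p = 0.0831 in limma), with the TGF-β1 replicates far apart. CTSK, the collagen-cleaving cathepsin K, had 0.53 ± 0.123 (SE, adjusted p = 0.0836). Fits on 3 of the 4 arrays called 1 or 2 of the 72 genes in place of 5, and 70 to 104 of all 19775 genes in place of 660.

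**Figure D4:**
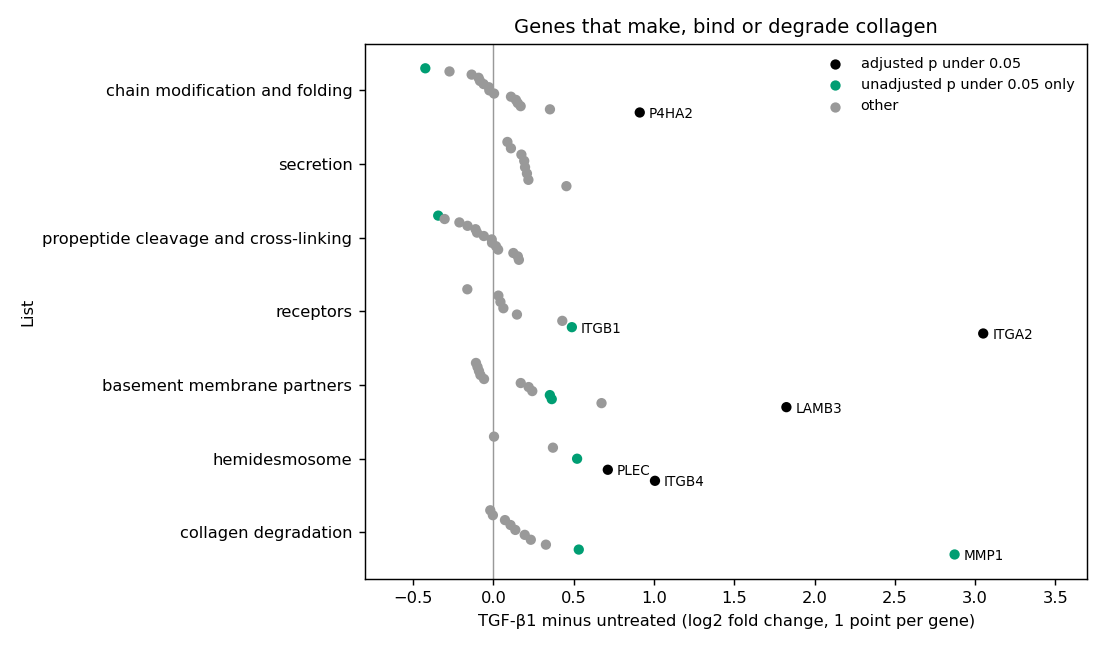
Log2 fold change (x axis, TGF-β1 minus untreated) of the 72 measured genes in 7 lists (y axis), 1 point per gene, black at limma adjusted p under 0.05 and green at an unadjusted p under 0.05 only. ITGA2 and LAMB3 lie farthest right among called genes, at 3.05 and 1.82, and MMP1, not called, lies at 2.87.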

How the data were processed

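Total RNA from 4 samples was hybridised to 1-colour HG-U133 Plus 2.0 arrays. The deposited log2 values were made by the authors with RMA (background correction, quantile normalization, summarization), per the series' design text and the submitters' processing notes; its version is, in the sources used here, not given, and the log2 scale was judged from the value range. RMA gives no detection call, and quantile normalization hides shifts shared by most genes. Of 54675 probe sets, the platform annotation pairs 41097 with 1 gene symbol, 1801 with several and 11777 with none; 41043 symbols could be updated by Entrez gene ID. For 19775 genes, without a filter, TGF-β1 and untreated arrays were set against each other in limma 3.58.1 (R 4.3.3; lmFit, then eBayes without trend, two-sided, 6.13 degrees of freedom). The fit was tested on simulated data. Since separate cultures are not stated, p-values reflect only how much these arrays vary, possibly for technical reasons. An exact permutation test of 2 against 2 arrays cannot reach 0.05, so none was used.

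The collagen genes, the gene lists and the classes were chosen with earlier results of these data known. Named are collagen genes at an unadjusted p under 0.05, the 6 brightest, the 4 highest and 4 lowest changes, the brightest of each class, in each other list the called genes or, with fewer than 2 called, the 2 with the largest change, and TGFBR2; other genes were picked with their values known. The alternatives comprised a minimum mean log2 of 5 or 7, an intensity trend, median centring, averaged or separate probe sets, a replicate block, each array left out, other thresholds and, added after seeing the data, omission of _x_at probe sets and the probe-set fits combined with the other choices. Some listed genes were not analysed here, among them COL17A1, LAMA3, DDR1 and COLGALT2.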

Additional observations from a re-analysis of the deposited data

How the results depend on the processing

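The count of higher collagen genes, 0, became 1 with averaged probe sets, 1 with _x_at probe sets left out (COL1A1 in both) and 3 at an unadjusted p. The count of lower genes, 1, became 0 with median centring, 0 with every probe set, 2 at an unadjusted p and 0 to 0 with 1 array left out. The 72 other listed genes gave 13 calls at an unadjusted limma p in place of 5, beside 16.7% of all genes at that unadjusted threshold. Fits with 1 array left out assume that the lone array of a group varies like the other group. The family's median log2 fold change was -0.04 to 0.07 with 1 array left out. The replicate numbers pair the arrays by name only: deviations of same-numbered arrays correlated at 0.364 over all genes, and at 0.737 over the 43 collagen genes (0.331 without COL3A1 and COL5A2). With the replicate block 3 of the 72 listed genes were called. The block left 1 lower collagen gene, COL3A1 (limma adjusted p = 0.0180), in place of COL4A2 (0.0651), and called 561 of all genes in place of 660. Over all probe sets the block called 1556499_s_at of COL1A1 (0.0413) and 215076_s_at and 201852_x_at of COL3A1 (0.0458 each). Among collagen genes that did not pass, the log2 fold change turned sign for COL13A1 with averaged probe sets (0.0435) and with _x_at probe sets left out (0.29). With 1 array left out it ranged from -0.0236 to 0.53 for COL10A1, -0.18 to 0.0829 for COL13A1, -0.0163 to 0.19 for COL18A1, -0.0019 to 0.0587 for COL1A1, -0.40 to 0.0303 for COL23A1, -0.14 to 0.21 for COL26A1, -0.16 to 0.33 for COL7A1 and -0.15 to 0.0257 for COL8A2; the causes were not tested. The number of arrays and the low signal of most collagen probe sets limit what can be seen.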
